A study of Homo sapiens with 8 samples.

Results

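The basement membrane genes described here were LAMA2, LAMA4, LAMA5, LAMB1, LAMB2 and LAMC1, which encode laminin chains, the nidogen genes NID1 and NID2, and HSPG2 and AGRN, which encode the heparan sulfate proteoglycans perlecan and agrin. They were taken by gene name from ribosome footprint tables of SNORA13 knockout (KO) and wild-type (WT) fibroblasts. All 10 were listed in both tables, out of 11940 genes listed in either. The family was picked with earlier results on these libraries known, above all the fall of matrix genes with 4-hydroxytamoxifen (4-OHT). The counts and tests of the 4-OHT comparisons below therefore describe these genes and are not independent evidence about them.

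Ribosome profiling sequences the stretches of mRNA that translating ribosomes protect. The cells were BJ, an established line of human skin fibroblasts, and every group carried the label BJ-HRAS; the sources used here do not say how HRAS was introduced or controlled. HRAS is a signalling GTPase, and 4-OHT is an estrogen receptor ligand. Clones 66 and 69 were labelled as KO for SNORA13, a small nucleolar RNA, and clones 15 and 54 as WT. Each clone was collected after 7 days of 100 nM 4-OHT and without it, so that each of the 4 groups held 2 libraries. The level of SNORA13 itself was not analysed here, so the knockout label was not checked. No label says whether untreated cells received vehicle. Each genotype rests on 2 clones, so genotype and clone cannot be told apart, and neither can 4-OHT and the table that holds its libraries.

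Basement membranes are thin sheets of extracellular matrix that underlie epithelia and surround muscle, fat, nerve and blood vessels. A laminin is a trimer of one α, one β and one γ chain that assembles inside the cell and polymerises at the surface. Nidogens and perlecan connect the laminin network to the type IV collagen network, while agrin ties laminin to dystroglycan on the cell. Dermal fibroblasts are a known source of several of these proteins.

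Approximate reads recovered from the values ranged from 190878 in KO clone 66 with 4-OHT to 1710474 in KO clone 69 without it. Of these reads the 10 genes together took 0.408% (clone 66) and 0.448% (clone 69) in KO clones with 4-OHT, against 1.92% and 1.62% without it. In WT clones they took 0.440% (clone 15) and 0.375% (clone 54) with 4-OHT, against 1.68% and 1.61% without it. Each library with 4-OHT lay below each library without it. All 13 fibroblast markers had reads in each library, and their sum also lay lower with 4-OHT, at 28281 to 34628 RPM (RPKM times the span in kb) against 62583 to 80263 without it. Endothelial cells make basement membranes too. Their marker sums ran from 10.5 to 56.0 RPM with 4-OHT and from 0 to 8.91 without it, with 3 of 8 markers listed. CDH5, KDR, TEK and ESAM were at 0 or not listed in each library. In WT clone 54 and KO clone 66 with 4-OHT, TIE1 was the only endothelial marker with reads. Leukocyte marker sums were 261 to 408 with 4-OHT and 139 to 292 without it, with CD3E and LYZ at 0 or not listed. Epithelial and keratinocyte sums were 124 to 246 with 4-OHT and 185 to 389 without it, with KRT5, KRT14, KRT1, EPCAM and TP63 at 0 or not listed. Melanocyte sums were 13.6 to 52.4 with 4-OHT and 64.5 to 79.8 without it, with 1 of 5 markers listed. Smooth muscle and pericyte sums were 23.7 to 57.6 with 4-OHT and 61.9 to 120.1 without it, with 5 of 6 listed, and Schwann and glial sums 0 to 4.74 with 4-OHT and 0 to 2.27 without it. The part of these markers in the results was not tested. In such libraries fewer cells of a type and less RNA per cell cannot be told apart, and a footprint value depends on both mRNA abundance and translation.

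Promoter sequence was at hand for 9 of the 10 genes, from RefSeq on GRCh38.p14, and 5 are shown because their genes mark the range of the response: HSPG2, whose footprints fell the most, and the paired genes LAMB1 with LAMB2 and NID1 with NID2, whose members fell by unlike amounts. Each run is the 250 bases before the annotated start, 5′ to 3′ on the gene's strand. Capitals mark matches on either strand to the GC box with the letters GGGCGG, to the CCAAT box, to the TATA box with the letters TATAAA and to the AP-1 element with the letters TGANTCA.
HSPG2 (chr1:21937311-21937560, minus strand): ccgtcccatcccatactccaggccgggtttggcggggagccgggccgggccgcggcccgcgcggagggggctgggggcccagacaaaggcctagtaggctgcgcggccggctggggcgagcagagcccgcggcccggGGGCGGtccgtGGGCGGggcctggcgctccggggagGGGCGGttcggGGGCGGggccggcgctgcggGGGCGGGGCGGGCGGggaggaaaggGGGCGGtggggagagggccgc
LAMB1 (chr7:108003162-108003411, minus strand): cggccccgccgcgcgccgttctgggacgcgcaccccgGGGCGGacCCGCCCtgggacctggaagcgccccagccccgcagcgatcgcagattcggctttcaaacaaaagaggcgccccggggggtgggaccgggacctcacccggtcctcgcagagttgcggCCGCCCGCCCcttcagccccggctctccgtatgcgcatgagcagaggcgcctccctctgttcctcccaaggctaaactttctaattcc
LAMB2 (chr3:49133051-49133300, minus strand): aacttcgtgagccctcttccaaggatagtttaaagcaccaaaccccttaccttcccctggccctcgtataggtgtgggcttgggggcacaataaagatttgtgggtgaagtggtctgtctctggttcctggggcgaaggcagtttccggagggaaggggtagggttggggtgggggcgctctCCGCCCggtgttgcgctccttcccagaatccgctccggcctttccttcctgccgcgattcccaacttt
NID1 (chr1:236065091-236065340, minus strand): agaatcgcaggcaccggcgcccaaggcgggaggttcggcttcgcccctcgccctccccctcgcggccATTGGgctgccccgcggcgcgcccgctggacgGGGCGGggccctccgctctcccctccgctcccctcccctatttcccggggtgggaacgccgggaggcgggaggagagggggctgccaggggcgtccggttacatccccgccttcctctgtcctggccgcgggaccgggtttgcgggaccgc
NID2 (chr14:52069060-52069309, minus strand): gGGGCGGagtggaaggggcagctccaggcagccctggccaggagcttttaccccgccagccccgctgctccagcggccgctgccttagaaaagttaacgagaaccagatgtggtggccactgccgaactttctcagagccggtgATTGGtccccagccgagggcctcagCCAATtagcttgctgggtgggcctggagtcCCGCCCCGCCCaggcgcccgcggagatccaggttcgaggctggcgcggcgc
HSPG2 held 8 GC box matches, LAMB1 held 4, NID2 held 3, and LAMB2 and NID1 held 1 each, with overlapping matches counted separately. Of the genes not shown, LAMA5 held 5, LAMC1 held 3, and LAMA2 and LAMA4 held 0. A link of these counts to the size of the fall was not tested. Over the 9 genes, 7 held a GC box, 2 (NID1 and NID2) a CCAAT box, and none a TATA box or an AP-1 element in this window. The LAMA4 window (chr6:112254568-112254817, minus strand) lies within the LAMA4 span given below, so it does not precede the outer end of that span. Of 35116 RefSeq promoter windows of the same length, 42.6% held a GC box, 32.0% a CCAAT box, 10.7% a TATA box and 6.57% an AP-1 element. The share of G and C bases ran from 48.4% to 82.8% over the windows of the 9 genes, against a median of 58% over all windows. The part of this base composition in the matches was not tested. These matches describe the letters and are not binding sites.

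With 4-OHT, footprints of all 10 genes were lower in both genotypes. In limma-trend, 10 of 10 fell in KO clones, where 11.9% of 8774 tested genes fell, and 10 of 10 fell in WT clones, where 8.43% of the same genes fell (Benjamini-Hochberg adjusted p under 0.05). The median log2 fold change of the 10 genes was -2.64 in KO clones against 0.13 over all tested genes, and -2.71 in WT clones against 0.18. Calls in either direction made up 30% of tested genes in KO clones and 22.8% in WT clones. Each clone with 4-OHT lay below both clones of its genotype without it for all 10 genes. Over all tested genes 25.8% were lower in this way and 36.7% higher in KO clones, and 27.5% lower and 41.5% higher in WT clones. Median-ratio scaling moved the all-gene medians to -0.18 in KO clones and -0.07 in WT clones and the members' medians to -2.98 in both. It also turned the calls over all genes to 1048 higher and 1486 lower in KO clones (as deposited, 1589 and 1043), and to 874 and 1020 in WT clones (as deposited, 1260 and 740). The fall ranged from below 2.5-fold to over 30-fold between genes, as the values below show. They are RPKM over the whole gene span, introns included, so levels of different genes are not set against each other.

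**Figure D1:**
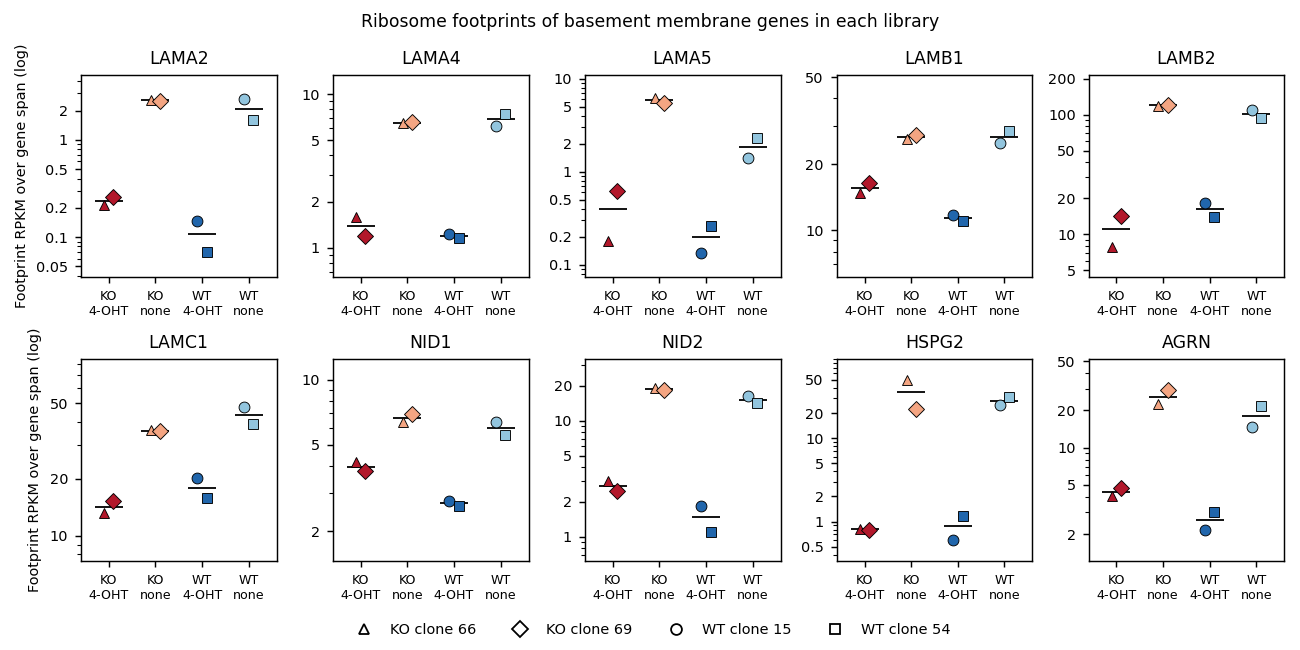
Footprint RPKM over the gene span (log axis) of each gene in each library; symbols are clones, colours are groups ("none" is without 4-OHT) and lines are group means of 2 clones. In each panel the symbols with 4-OHT lie below those without it, with the widest gap for HSPG2 and the narrowest for NID1 and LAMB1.

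Of the α chains, which carry the cell-binding domains of a laminin, LAMA2, LAMA4 and LAMA5 were members. LAMA2 (ENSG00000196569.12; chromosome 6, 128883138 to 129516566), the α chain of muscle and nerve basement membranes, had 0.215 (clone 66) and 0.257 RPKM (clone 69) in KO clones with 4-OHT, against 2.58 and 2.53 without it. In WT clones it had 0.148 (clone 15) and 0.0697 RPKM (clone 54) with 4-OHT, against 2.61 and 1.58 without it. Its lowest values were thus in the WT clones with 4-OHT. LAMA2 fell in both genotypes, with a log2 fold change of -3.42 ± 0.32 (SE; adjusted p = 1.52e-05) in KO clones and -4.28 ± 0.32 (adjusted p = 3.81e-06) in WT clones. LAMA2 spans 633429 bp, and on the log2(RPKM + 1) scale its changes shrank to -1.52 in KO clones and -1.46 in WT clones.

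LAMA4 (ENSG00000112769.19; chromosome 6, 112107931 to 112254985), the α chain of vessel, fat and other mesenchymal basement membranes, had 1.58 (clone 66) and 1.19 RPKM (clone 69) in KO clones with 4-OHT, against 6.44 and 6.63 without it. WT clones had 1.23 (clone 15) and 1.16 RPKM (clone 54) with 4-OHT, against 6.23 and 7.44 without it. The genotypes overlapped in both conditions. LAMA4 fell with a log2 fold change of -2.24 ± 0.19 (SE; adjusted p = 8.27e-06) in KO clones and -2.50 ± 0.19 (adjusted p = 4.86e-06) in WT clones.

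LAMA5 (ENSG00000130702.15; chromosome 20, 62309065 to 62367312), the α chain widespread in epithelial and vessel basement membranes, had 0.180 (clone 66) and 0.612 RPKM (clone 69) in KO clones with 4-OHT, against 6.13 and 5.48 without it. WT clones had 0.132 (clone 15) and 0.262 RPKM (clone 54) with 4-OHT, against 1.42 and 2.30 without it. The value of clone 66 with 4-OHT rests on 2 reads, which allow 0.0218 to 0.650 RPKM (exact Poisson 95% interval, counting error only). In KO clones LAMA5 fell with a log2 fold change of -3.97 ± 0.51 (SE; adjusted p = 1.62e-04), -3.17 without clone 66 with 4-OHT and -4.77 without clone 69 with 4-OHT. In WT clones it was -3.05 ± 0.51 (adjusted p = 0.00110). On the log2(RPKM + 1) scale the changes were -2.30 and -1.24.

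The β chains differed in the size of their fold changes. LAMB1 (ENSG00000091136.14; chromosome 7, 107923799 to 108003161), the β1 chain of the common laminins, had 14.9 (clone 66) and 16.5 RPKM (clone 69) in KO clones with 4-OHT, against 26.2 and 27.2 without it. WT clones had 11.7 (clone 15) and 11.0 RPKM (clone 54) with 4-OHT, against 25.0 and 28.5 without it. The fall was among the smallest of the 10 genes, with a log2 fold change of -0.77 ± 0.15 (SE; adjusted p = 0.00274) in KO clones and -1.23 ± 0.15 (adjusted p = 1.36e-04) in WT clones.

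LAMB2 (ENSG00000172037.14; chromosome 3, 49121114 to 49133050), the β2 chain known from the kidney filter and the neuromuscular junction, had 7.86 (clone 66) and 14.1 RPKM (clone 69) in KO clones with 4-OHT, against 118 and 121 without it. WT clones had 18.2 (clone 15) and 14.0 RPKM (clone 54) with 4-OHT, against 109 and 94.0 without it. LAMB2 fell with a log2 fold change of -3.48 ± 0.25 (SE; adjusted p = 2.70e-06) in KO clones and -2.65 ± 0.25 (adjusted p = 2.08e-05) in WT clones. The ratio of LAMB2 to LAMB1 RPKM within a library, which does not depend on the scaling of the library, was 0.529 (clone 66) and 0.853 (clone 69) in KO clones with 4-OHT, against 4.51 and 4.43 without it. In WT clones it was 1.55 (clone 15) and 1.27 (clone 54) with 4-OHT, against 4.35 and 3.29 without it. It was lower in each library with 4-OHT than in each library without it. As both genes were measured over unlike spans, the shift of the ratio has a meaning here and its height does not.

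LAMC1 (ENSG00000135862.6; chromosome 1, 183023420 to 183145592) encodes γ1, the γ chain of most laminins. It had 13.3 (clone 66) and 15.3 RPKM (clone 69) in KO clones with 4-OHT, against 36.0 and 35.5 without it. WT clones had 20.1 (clone 15) and 15.8 RPKM (clone 54) with 4-OHT, against 47.7 and 38.9 without it. LAMC1 fell with a log2 fold change of -1.33 ± 0.17 (SE; adjusted p = 1.75e-04) in KO clones and -1.27 ± 0.17 (adjusted p = 2.61e-04) in WT clones. Both KO clones lay below both WT clones in each condition, but neither difference was called (limma-trend adjusted p = 0.608 without 4-OHT and 0.778 with it). The LAMC1 RPKM values rest on 309 to 7696 reads per library.

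The nidogens also parted. NID1 (ENSG00000116962.15; chromosome 1, 235975830 to 236065090) encodes nidogen-1, which binds the laminin γ1 chain. It had 4.17 (clone 66) and 3.78 RPKM (clone 69) in KO clones with 4-OHT, against 6.37 and 6.94 without it. WT clones had 2.76 (clone 15) and 2.62 RPKM (clone 54) with 4-OHT, against 6.41 and 5.57 without it. Among the 10 genes NID1 fell least, with a log2 fold change of -0.74 ± 0.17 (SE; adjusted p = 0.00803) in KO clones and -1.14 ± 0.17 (adjusted p = 6.22e-04) in WT clones. In KO clones the call was lost without clone 69 of the untreated libraries (log2 fold change -0.68, adjusted p = 0.0570).

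NID2 (ENSG00000087303.18; chromosome 14, 52004809 to 52069059), which encodes the related nidogen-2, had 3.01 (clone 66) and 2.50 RPKM (clone 69) in KO clones with 4-OHT, against 19.0 and 18.2 without it. WT clones had 1.83 (clone 15) and 1.11 RPKM (clone 54) with 4-OHT, against 16.3 and 14.0 without it. NID2 fell with a log2 fold change of -2.75 ± 0.23 (SE; adjusted p = 8.27e-06) in KO clones and -3.38 ± 0.23 (adjusted p = 2.16e-06) in WT clones. The ratio of NID2 to NID1 within a library ran from 0.422 to 0.722 in the 4 libraries with 4-OHT and from 2.52 to 2.98 in the 4 without it. The annotated span of NID2 overlaps that of the protein-coding gene RTRAF, and how reads in shared stretches were counted is not stated.

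Of the heparan sulfate proteoglycans, HSPG2 (ENSG00000142798.20; chromosome 1, 21822244 to 21937310), which encodes the multidomain core protein perlecan, had the largest fall. It had 0.820 (clone 66) and 0.796 RPKM (clone 69) in KO clones with 4-OHT, against 50.1 and 22.1 without it. WT clones had 0.603 (clone 15) and 1.17 RPKM (clone 54) with 4-OHT, against 25.2 and 31.0 without it. The mean was 44.7-fold lower with 4-OHT in KO clones and 31.8-fold lower in WT clones. The log2 fold change was -5.34 ± 0.36 (SE; adjusted p = 1.35e-06) in KO clones and -5.03 ± 0.36 (adjusted p = 2.46e-06) in WT clones, the 26th and 20th lowest of 8774 tested genes. In KO clones it was -4.75 without untreated clone 66 and -5.93 without untreated clone 69, since these clones differed from each other. The HSPG2 span overlaps that of the protein-coding gene LDLRAD2, not analysed here.

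AGRN (ENSG00000188157.15; chromosome 1, 1020120 to 1056116), which encodes agrin, the organiser of acetylcholine receptors at the neuromuscular junction, had 4.08 (clone 66) and 4.72 RPKM (clone 69) in KO clones with 4-OHT, against 22.5 and 29.1 without it. WT clones had 2.17 (clone 15) and 3.02 RPKM (clone 54) with 4-OHT, against 14.7 and 21.6 without it. Both KO clones lay above both WT clones in each condition, but neither difference was called (limma-trend adjusted p = 0.412 without 4-OHT and 0.778 with it). The log2 fold change with 4-OHT was -2.53 ± 0.25 (SE; adjusted p = 2.12e-05) in KO clones and -2.77 ± 0.25 (adjusted p = 1.38e-05) in WT clones. Its fold changes were smaller than those of HSPG2, and the ratio of AGRN to HSPG2 within a library was 2.59 to 5.93 in the 4 libraries with 4-OHT and 0.449 to 1.32 in the 4 without it.

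**Figure D2:**
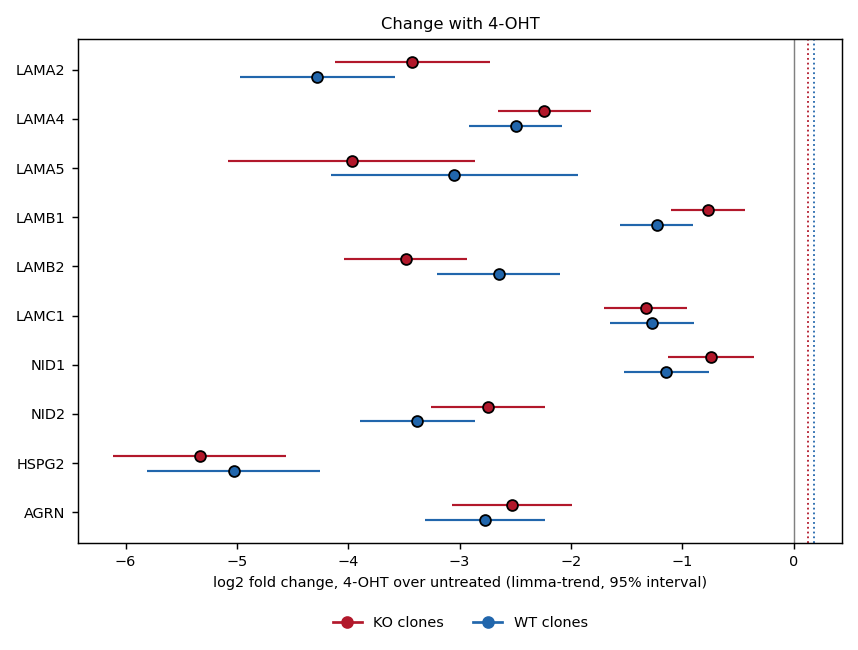
Log2 fold change with 4-OHT over untreated for each gene in KO and WT clones (points, filled where the limma-trend adjusted p was under 0.05) with 95% intervals; dotted lines are the medians of all tested genes. LAMB1, LAMC1 and NID1 lie between -0.74 and -1.33, and HSPG2 lies below -5 in both genotypes.

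**Figure D3:**
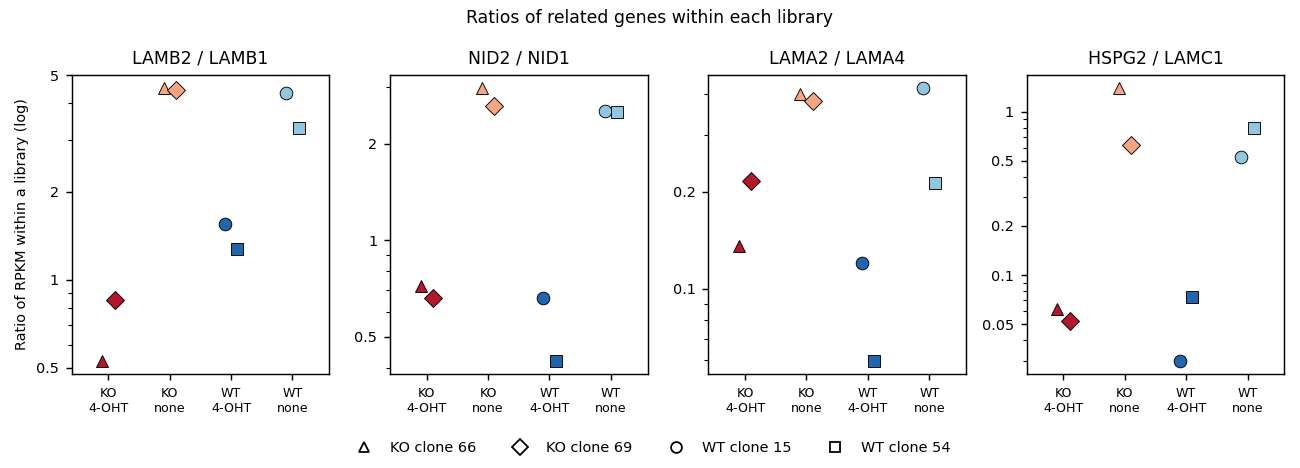
Ratios of RPKM of related genes within each library (log axis), by group; symbols are clones. LAMB2 to LAMB1, NID2 to NID1 and HSPG2 to LAMC1 are lower in each library with 4-OHT, while the LAMA2 to LAMA4 ratio of KO clone 69 with 4-OHT (0.216) lies just above that of WT clone 54 without it (0.213).

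HSPG2 over LAMC1 was 0.0300 to 0.0738 with 4-OHT and 0.529 to 1.39 without it. LAMB1 over LAMC1 was 1.12 (clone 66) and 1.08 (clone 69) in KO clones with 4-OHT, against 0.729 and 0.766 without it. In WT clones it was 0.584 (clone 15) and 0.697 (clone 54) with 4-OHT, against 0.525 and 0.734 without it. The conditions thus overlapped in WT clones and not in KO clones. The 5 genes outside the family whose pattern over the 8 libraries was most like that of LAMC1 were GRIK2, SLC6A9, SEC31A, SLC12A2 and ERBB2, with Pearson r of 0.995, 0.992, 0.992, 0.989 and 0.987 on log2(RPM + 2). Among the 10 genes LAMB2 was closest (r = 0.974) and LAMA5 farthest (r = 0.797). These 8 libraries fall into those with and those without 4-OHT, so any gene that is clearly lower with 4-OHT scores high, and r is given as a description.

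Whether the 4-OHT response differed between genotypes was asked with the interaction term. In limma-trend 0 of 10 genes passed, as did 0 of 8774 tested genes (0%), with an unadjusted p under 0.05 for 1 of the 10 and 383 of all genes; limma-voom called 0 of the 10 and 4 of all genes. The 1 member was LAMB2, whose fall was larger in KO clones by a log2 difference of -0.83 ± 0.36 (SE; 95% interval -1.62 to -0.05, adjusted p = 0.866). Without KO clone 69 with 4-OHT, which leaves the shallow clone 66 with 18 LAMB2 reads as the lone KO library and assumes that it varies like the others, this difference was -1.25 (adjusted p = 0.0198), in a fit that called 8.76% of its 8649 genes. LAMA2 had a difference of 0.85 (95% interval -0.13 to 1.84) and LAMA5 of -0.92 (-2.49 to 0.65). For LAMC1, with a difference of -0.06, the interval ran from -0.59 to 0.47.

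Between KO and WT clones without 4-OHT, LAMA5 was the member that differed. It averaged 5.80 ± 0.459 RPKM in KO clones and 1.86 ± 0.626 RPKM in WT clones (mean ± SD, n = 2 clones each), and both KO clones (322 and 546 reads) lay above both WT clones (109 and 106 reads). The log2 fold change was 1.66 ± 0.23 (SE; limma-trend adjusted p = 0.00346), and 1 of 10 genes was called, where 0.625% of 8159 tested genes were called (0.38% higher and 0.245% lower). The call was kept without each library in turn, but it was lost on the log2(RPKM + 1) scale (adjusted p = 0.338), on the log2(RPKM + 0.1) scale (0.452) and with all 8 libraries in the fit (0.875, or 0.880 with the clone as a random block). The log2 fold change was 1.27 to 1.66 in these fits.

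Of the other 9 genes, AGRN averaged 25.8 ± 4.67 RPKM in KO clones and 18.2 ± 4.86 RPKM in WT clones without 4-OHT (SD, n = 2 each), a log2 fold change of 0.52 ± 0.20 (SE; limma-trend adjusted p = 0.412). Perlecan footprints in KO clone 66 (50.1 RPKM from 5204 reads) were over those of the other 3 untreated clones, and KO clone 69 had the lowest value of the 4 (22.1 RPKM from 4353 reads). The HSPG2 log2 fold change was 0.25 ± 0.26 (SE; adjusted p = 0.805). Without KO clone 69 it was 0.84, a value that rests on clone 66 as the lone KO library. LAMA5, LAMB2, NID2 and AGRN were higher in both KO clones than in both WT clones, and LAMC1 lower. Over all tested genes, 18.9% were higher and 20.6% lower in this way. LAMB1, at 26.7 ± 0.675 RPKM in KO clones and 26.8 ± 2.49 RPKM in WT clones (SD, n = 2 each), had a log2 difference of 0.00 with a 95% interval of -0.31 to 0.31.

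Between KO and WT clones with 4-OHT, 0 of 10 genes were called by limma-trend and by limma-voom, where limma-trend called 0.0258% of 7758 tested genes (0.0129% higher and 0.0129% lower). At an unadjusted p under 0.05 there were 5 of the 10 genes and 463 of all genes. LAMA2, LAMB1, NID1, NID2 and AGRN were higher in both KO clones than in both WT clones, and LAMC1 lower, where 19.1% and 18.5% of tested genes were so placed. KO clone 66 had 26 LAMA2, 37 NID2 and 28 AGRN reads, and WT clone 54 had 26 LAMA2 reads. By counting error alone (exact Poisson 95% interval), LAMA2 in clone 66 could lie at 0.140 to 0.315 RPKM. That overlaps 0.126 to 0.173 RPKM in WT clone 15. LAMA2 averaged 0.236 ± 0.0298 RPKM in KO clones and 0.109 ± 0.0553 RPKM in WT clones (SD, n = 2 each), a log2 fold change of 1.18 ± 0.39 (SE; adjusted p = 0.778). NID2 averaged 2.75 ± 0.362 RPKM in KO clones and 1.47 ± 0.512 RPKM in WT clones, a log2 fold change of 0.93 ± 0.34 (adjusted p = 0.778). Without KO clone 69, LAMA2 (1.06, adjusted p = 0.0294), NID2 (1.06, 0.0161) and LAMB2 (-1.01, 0.0164) were called, 3 of 9 members tested in that fit, which called 23.7% of its 6663 genes. There the shallow clone 66 is the lone KO library. The spread comes from the WT clones, drawn by limma towards the trend over all tested genes. The LAMA5 difference of KO and WT clones was 0.74 with 4-OHT, with a 95% interval of -1.15 to 2.64. It was 1.54 without KO clone 66 and 1.16 without WT clone 54.

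**Figure D4:**
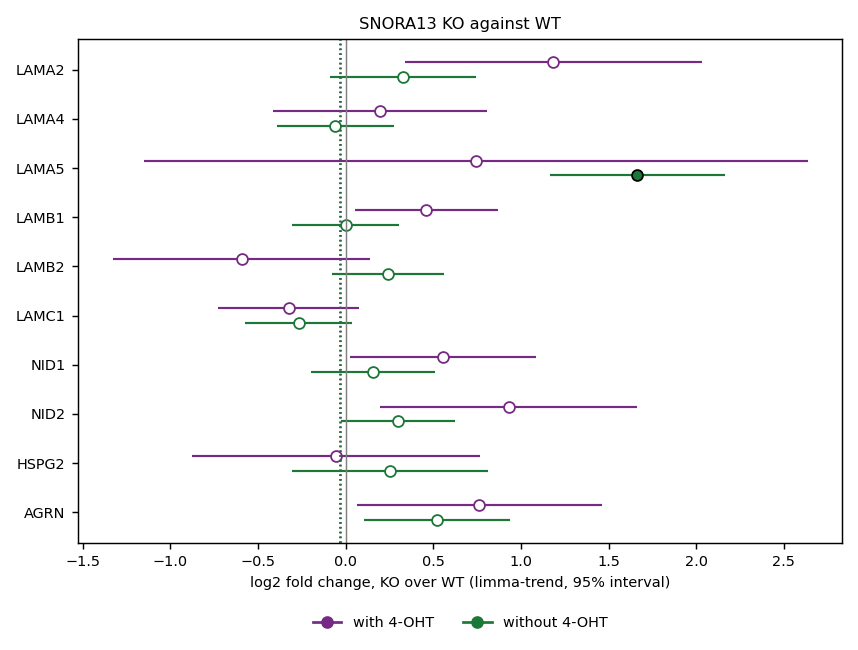
Log2 fold change of KO over WT clones for each gene, with 4-OHT and without it (points, filled where the limma-trend adjusted p was under 0.05) with 95% intervals; dotted lines are the medians of all tested genes. LAMA5 without 4-OHT, at 1.66, is the filled point.

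The wider basement membrane gene lists were also measured. They too were written with earlier results known, and their counts stand beside the all-gene shares of 18.1% higher and 11.9% lower in KO clones and 14.4% higher and 8.43% lower in WT clones with 4-OHT. These counts are from limma-trend. In WT clones limma-voom called more, at 3 other laminin chains, 6 collagens, 8 glycoproteins, 9 receptors, 6 heparan sulfate genes and 7 proteases in either direction. In KO clones it called 3 heparan sulfate genes in place of 2 and as many as limma-trend in the other lists. Some genes met the read filter only through the untreated libraries, so that a low value with 4-OHT was built into their choice, and their counts and list medians are no support for a fall. These were LAMA1 and LAMA3 among 4 tested laminin chains, COL15A1 and COL4A4 among 6 collagens, MATN2 among 8 glycoproteins, ITGB4 and SGCD among 11 receptors, HPSE, NDST2 and SULF1 among 14 heparan sulfate genes and BMP1 among 9 proteases. None of the 10 members was among them. Of 6 other laminin chains, 4 were tested, and LAMA1 and LAMA3 were called lower in each genotype. LAMA1, the α chain of early embryonic basement membranes, had 3 reads over the KO clones with 4-OHT, against 145 without it, and 28 over the WT clones with 4-OHT, against 261 without it. LAMA3, an epithelial α chain, had 3 reads over the KO clones with 4-OHT, against 286 without it, and 7 over the WT clones with 4-OHT, against 127 without it. LAMB3, an epithelial β chain, did not pass, with log2 fold changes of 1.73 ± 0.93 (SE; adjusted p = 0.181) in KO and 0.86 ± 0.93 (0.580) in WT clones.

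Of 9 basement membrane collagen genes, 6 were tested, and 5 fell in KO and 4 in WT clones (median -2.20 and -2.34). COL4A1 and COL4A2, the type IV collagen chains found in nearly all basement membranes, fell in both genotypes. COL4A2 averaged 0.751 ± 0.0912 RPKM in KO clones with 4-OHT, against 4.68 ± 0.174 without it, and 0.607 ± 0.109 in WT clones with 4-OHT, against 4.02 ± 0.208 without it (SD, n = 2 each). COL15A1, whose product bridges basement membranes and collagen fibrils, fell to 3 reads over the KO clones and 1 read over the WT clones with 4-OHT, against 402 and 576 without it. COL4A4 had 0 reads with 4-OHT in both genotypes, against 47 without it in KO clones and 26 in WT clones, and the bound with a floor of 3 reads over the group was at least 7.03-fold lower in KO and 9.33-fold lower in WT clones. It did not pass limma-trend in WT clones (adjusted p = 0.0818), though limma-voom called 6 of 6 tested collagens there. The WT clones without 4-OHT were unlike, at 0.0937 (clone 15) and 0.0157 RPKM (clone 54). With COL4A4 at its bound the WT median of the list was -2.52 and the KO median kept its value of -2.20. COL18A1 fell in WT clones (-1.86 ± 0.34 SE, adjusted p = 0.00201) and had -0.74 ± 0.34 in KO clones (0.117).

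Of 17 other basement membrane glycoproteins, 8 were tested and 7 fell in each genotype (median -1.17 in KO and -1.73 in WT clones). NTN4, which encodes the laminin-binding netrin-4, averaged 0.211 ± 0.0921 RPKM in KO clones with 4-OHT, against 6.49 ± 0.697 without it, and 0.521 ± 0.159 in WT clones with 4-OHT, against 5.44 ± 0.783 without it (SD, n = 2 each). SPARC, PXDN, FBLN2, FRAS1 and MATN2 fell in both genotypes, HMCN1 in WT clones and FBLN1 in KO clones.

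Of 15 laminin receptor genes, 11 were listed in both tables and tested, while ITGA3, ITGA7, ITGB1 and SGCE were not. The tested receptors moved in both directions, with 3 of 11 higher and 5 lower in each genotype (median -0.97 in KO and -0.56 in WT clones). The integrin subunits ITGA2 and ITGA6 and the syndecan SDC1 rose, and ITGB4, DAG1, BCAM, SDC2 and ITGA1 fell. ITGA2, the α subunit of a collagen and laminin receptor, averaged 10.4 ± 0.676 RPKM in KO clones with 4-OHT, against 0.519 ± 0.0501 without it, and 8.29 ± 1.36 in WT clones with 4-OHT, against 0.551 ± 0.120 without it (SD, n = 2 each). ITGA6, the α subunit of laminin receptors, averaged 23.6 ± 0.0958 in KO clones with 4-OHT, against 4.73 ± 0.465 without it, and 20.1 ± 5.13 in WT clones with 4-OHT, against 5.60 ± 2.41 without it. DAG1, which encodes dystroglycan, the receptor of LAMA2 laminins, perlecan and agrin, averaged 1.16 ± 1.09 in KO clones with 4-OHT, against 7.53 ± 0.733 without it. In WT clones DAG1 averaged 2.01 ± 0.0417 with 4-OHT, against 6.11 ± 0.809 without it. Of 10 tested dystroglycan glycosylation genes, which build the sugar that binds laminin, 0 passed in limma-trend and 0 in limma-voom in either genotype, with 1 in KO and 0 in WT clones at an unadjusted p under 0.05 (median 0.03 in KO and 0.05 in WT clones).

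Of 14 tested genes of heparan sulfate synthesis and editing, the pathway that makes the sugar chains of perlecan and agrin, 0 rose and 2 fell in KO clones and 2 rose and 1 fell in WT clones (median -0.04 and 0.58). SULF1, an extracellular enzyme that trims sulfate from heparan sulfate, had 2 reads over the KO clones with 4-OHT, against 1899 without it. Over the WT clones SULF1 had 0 reads with 4-OHT, against 1401 without it, and was at least 503-fold lower with a floor of 3 reads over the group. HPSE, the enzyme that cleaves heparan sulfate and the other gene called lower in KO clones, had 4 reads over the KO clones with 4-OHT, against 125 without it, and 21 over the WT clones with 4-OHT, against 92 without it. XYLT1 and XYLT2, which start the sugar chain, were called higher in WT clones; XYLT1 had 76 reads over these clones with 4-OHT, against 11 without it, and met the filter only through the libraries with 4-OHT, and XYLT2 had a log2 fold change of 0.88.

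Of 9 tested protease genes whose products cut basement membrane proteins, 3 rose and 5 fell in KO clones and 3 rose and 2 fell in WT clones (median -0.73 and -0.33). PLAU and PLAT, the plasminogen activators, rose, and so did CTSL. PLAU averaged 425 ± 57.2 RPKM in KO clones with 4-OHT, against 16.4 ± 1.62 without it, and 404 ± 75.9 in WT clones with 4-OHT, against 11.9 ± 0.165 without it (SD, n = 2 each). ADAMTS1, a secreted metalloprotease, averaged 6.38 ± 1.72 in KO clones with 4-OHT, against 485 ± 41.3 without it, and 8.02 ± 2.38 in WT clones with 4-OHT, against 273 ± 11.8 without it. PRSS12, which encodes the agrin-cleaving protease neurotrypsin, fell in KO clones (-4.89 ± 0.81 SE, adjusted p = 9.83e-04; 20 reads over both clones with 4-OHT, against 495 without it) and had -1.98 ± 0.81 in WT clones (0.106). None of these differences between genotypes passed the interaction test in limma-trend. Without 4-OHT, ADAMTS1 (log2 fold change 0.82, limma-trend adjusted p = 0.0105) and the receptor gene ITGB4 (1.60, 0.0122) were called higher in KO than in WT clones. No gene of the wider lists was called lower. Calls between genotypes without 4-OHT were lost on the log2(RPKM + 1) scale, as given below.

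**Figure D5:**
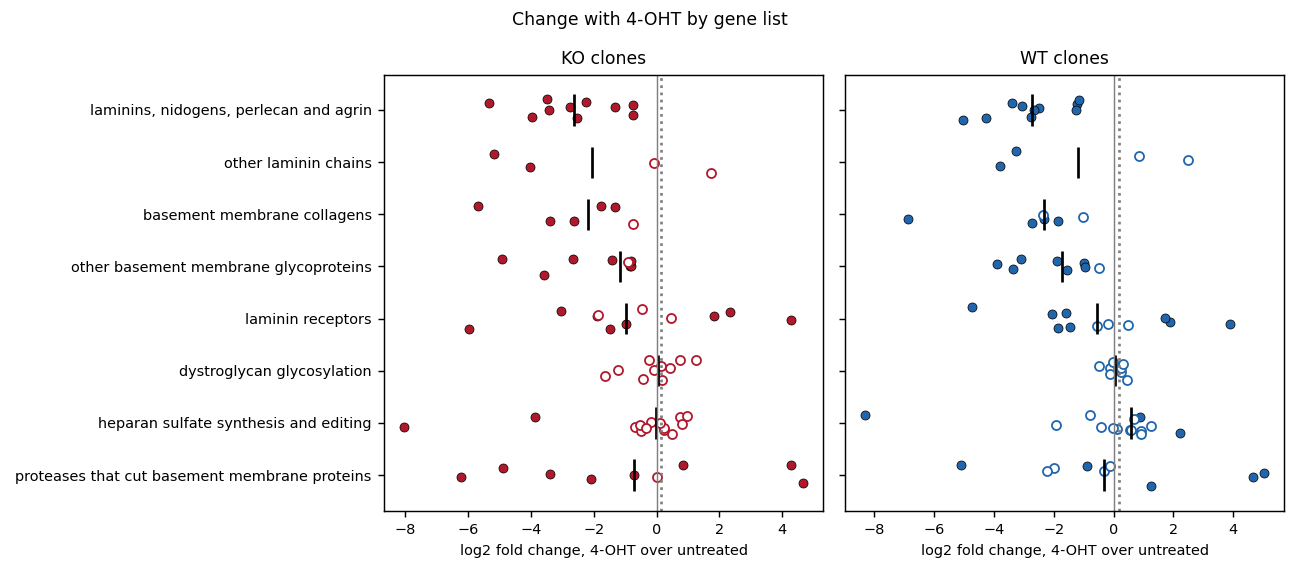
Log2 fold change with 4-OHT over untreated of each tested gene by list, in KO clones (left) and WT clones (right); filled points had a limma-trend adjusted p under 0.05, black bars are list medians and the dotted line is the median of all tested genes. The laminin, nidogen, perlecan and agrin genes lie below 0 in both panels, and receptors and proteases hold filled points on both sides.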

How the data were processed

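The members and lists were chosen with earlier results of these data known. The deposited tables give 1 value per gene and library. They name no unit; the values are RPKM over the gene span, introns included, since value times span in kb sums to 1012130 to 1019240 in each library. Reads were aligned with STAR to GRCh38, per the submitters' processing notes; its version, the read counter, annotation, strand use and handling of multiply mapped reads: not given in the sources used here. Ribosome-protected fragments were prepared by the McGlincy and Ingolia protocols, per the labels' protocols.

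Spans came from RefSeq on GRCh38.p14, for all but 104 of 11079 genes with and 105 of 11546 genes without 4-OHT; 10685 genes were in both tables. From the RPKM values the authors deposited, RPM were computed as RPKM times span in kb, and approximate reads from the step shared by low values (75.7% to 81.1% of values under 20 reads lay within 0.1 of a whole number). Tests were limma-trend (limma 3.58.1, R 4.3.3) on log2(RPM + 2), for genes with at least 10 reads in at least 2 libraries, adjusted by Benjamini-Hochberg over all tested genes, two-sided, threshold 0.05. An added 1 on the RPKM scale would have swamped long genes such as LAMA2. 4-OHT and interaction terms were fitted on all 8 libraries, across the tables, since each library is scaled to its own total; genotype terms on the 4 libraries of a table. The fit was also run on simulated data, and the outcome is not given here. All 10 members passed the read filter in each fit on all of its libraries. Noncoding or pseudogene entries overlap the spans of LAMA2, LAMA4, LAMA5, LAMB1, LAMB2, LAMC1 and HSPG2, and without known strand use their reads cannot be told apart from those of the member. With 2 libraries against 2, an exact permutation test can give no p below 1 in 3, so none was run. p-values rest on the spread between clones of a gene, drawn by limma towards a trend of the spread over all tested genes. They therefore do not measure the spread between the clones of that gene alone.

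Clone numbers in the labels pair the libraries with and without 4-OHT; deviations of the same clone correlated at 0.08 in WT and 0.02 in KO clones. All 10 members are named; from other lists, up to 4 called genes with the largest change in each 4-OHT comparison, with others named after their values were seen. Some items of the lists are not reported here. Levels per coding length were not computed, as no coding lengths were used here.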

Additional observations from a re-analysis of the deposited data

How the results depend on the processing

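Of 170 pairs of a gene and an alternative in each 4-OHT comparison, 169 kept the call in KO clones (the exception, NID1, is given above) and 170 in WT clones, and none changed direction. The clone as a fixed replicate block called the same 10 genes in each, and 2766 and 2034 genes in all, in place of 2632 and 2000; it changed no call of the 10 genes. With only the 4 libraries of the genotype 1719 and 3128 genes were called. Leaving out 1 library gave 1359 genes (without untreated KO clone 66) to 4259 genes (without KO clone 69 with 4-OHT) and 9 to 10 members in KO clones. In WT clones it gave 1029 to 2936 genes and 10 members, with 1029 to 1309 without any 1 WT library. For the interaction limma-voom called 4 genes, the replicate block 0, and leaving out 1 library 0 to 758 genes and 0 to 1 members, the highest without KO clone 69 with 4-OHT. For KO against WT with 4-OHT, 2 genes became 0 with log2(RPKM + 1), 0 with log2(RPKM + 0.1), 54 with limma-voom, 1 with all 8 libraries, 1 with the random replicate block, and 17 to 1577 genes and 0 to 3 members without 1 library, the highest without KO clone 69 (17 to 25 genes without any other). Without 4-OHT, 51 genes and 1 member became 0 genes and 0 members with log2(RPKM + 1) and log2(RPKM + 0.1), 3 genes and 0 members with all 8 libraries and with the random replicate block, and 29 genes (without KO clone 66) to 225 genes (without KO clone 69) and 1 to 2 members without 1 library. The cause was not tested. LAMA5 could not be fitted in 2 of the fits without 1 library with 4-OHT, as it missed the read filter. In the shallowest library, KO clone 66 with 4-OHT, 3 reads equal 15.7 RPM, and LAMA5 lay below that.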
